A study of Mus musculus with 6 samples.

Results

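Genes known as targets of the let-7 microRNAs were followed in bulk RNA-seq of dorsal root ganglia from mice. These ganglia lie beside the spinal cord and hold the cell bodies of sensory neurons with their glia. The list held 31 genes described as experimentally tested or conserved let-7 targets. They were chosen by gene symbol and not by their values, though with earlier results of these data known. All 31 were among the 54532 genes of the count table. A mean of at least 1 CPM, the read count scaled to library depth, over the 6 libraries was reached by 24 of them, called expressed here, and 7 stayed under it. Igf2bp3 was the expressed member nearest the limit, with a mean of 2.02 CPM, and Dna2 the nearest below it, with 0.966 CPM.

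The ganglia came from Ash1l+/- mice (3 libraries), heterozygous for the histone methyltransferase gene Ash1l, and from their WT littermates (3 libraries). The series' title ties Ash1l in neurons to the release of miR-let-7b. The sources used here do not give the structure of the Ash1l allele, the age, sex or strain of the mice, or whether a library was 1 animal or a pool. P-values therefore set the genotype difference only against the scatter among these libraries, and part of that scatter may be technical.

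The let-7 miRNAs are short RNAs that are abundant in differentiated cells, including neurons. Loaded into an Argonaute protein, they pair through their seed, the bases near the 5′ end, with matching letters in the 3′ UTR of an mRNA, and they lower its stability and translation. Many of their targets drive growth and division in embryonic cells and tumours, and the LIN28 proteins, which block the maturation of let-7 precursors, are themselves targets. The libraries were made from long RNA and did not measure mature miRNAs.

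Most mouse let-7 members share 1 seed. The mature sequences below are from RefSeq (GRCm38.p6), with bases 2 to 8 in capitals. They are shown because the target letters are read from them: let-7b is the miRNA named in the series' title, let-7a, let-7i and miR-98 are relatives with the same seed, and let-7j is one of the entries whose seed differs. Mature let-7b lies at chr15:85707325-85707346 on the plus strand.
let-7b-5p: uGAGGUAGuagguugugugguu
let-7a-5p: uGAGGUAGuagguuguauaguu
let-7i-5p: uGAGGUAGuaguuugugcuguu
miR-98-5p: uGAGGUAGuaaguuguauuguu
let-7j: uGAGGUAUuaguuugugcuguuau

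The letters complementary to bases 2 to 8 of let-7b are CTACCTC. They were searched on the transcript strand in the 3′ UTR of each gene's longest coding transcript (GENCODE M21, GRCm38). At least 1 such seed match was present in 26 of the 31 list members (83.9%), and 18 of the 31 (58.1%) had a match followed by an A, the letter opposite base 1 of the miRNA. Over all 14047 tested genes with a 3′ UTR, 1457 (10.4%) had a match and 508 (3.62%) had one followed by an A. The list was assembled from known targets, so this share describes the list and is no finding. The members' 3′ UTRs were also longer, with a median of 2250 bases against 1188 bases over those tested genes. Nr6a1 had the most matches with 8, while Lin28b, Hmga2, Igf2bp1 and Trim71 had 4 each. Myc, Mycn, Ccnd1, Ccnd2 and Thbs1 had no match in the UTR searched, which says only that these letters are not in that window.

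**Figure D1:**
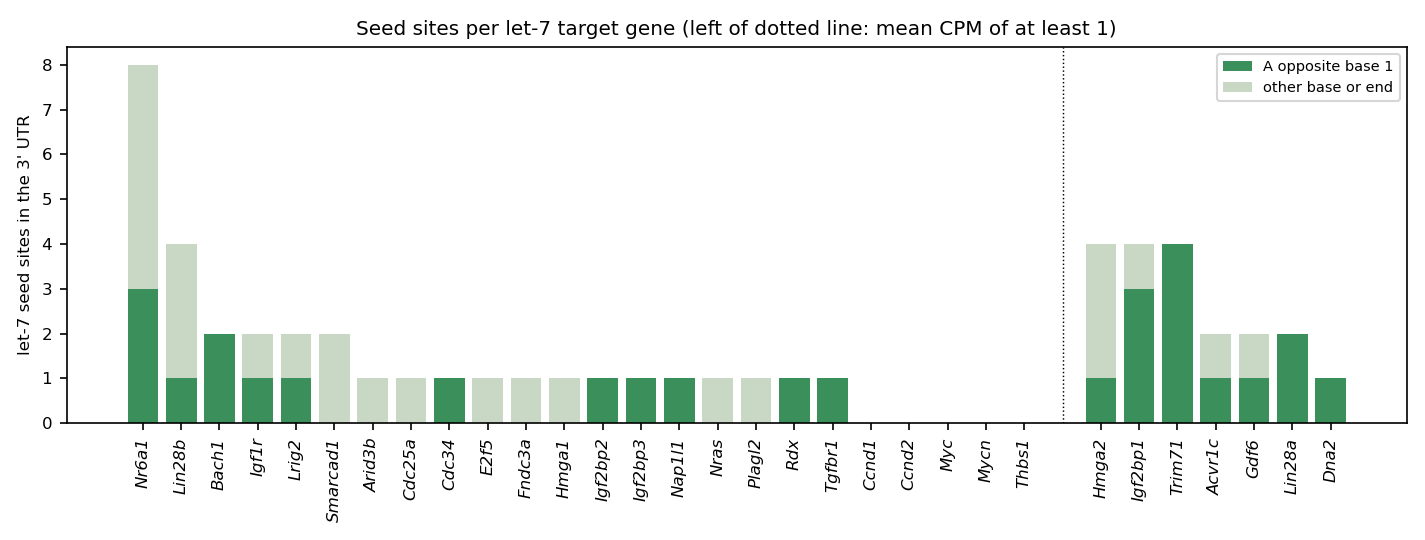
Number of let-7 seed matches in the 3′ UTR (y axis) for each of the 31 genes (x axis), with expressed genes left of the dotted line and genes under 1 CPM right of it. Dark bars count matches followed by an A and pale bars the others: Nr6a1 had 8 matches, and Myc, Mycn, Ccnd1, Ccnd2 and Thbs1 had none.

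The matches of the 5 genes below are shown because these genes changed in the comparison without WT replicate 2 described further on, and that of Lin28b because its protein acts on let-7 itself. Each line gives the 22 bases that end opposite base 1 of the miRNA, 5′ to 3′ on the transcript strand, with the seed match and a following A in capitals. The Rdx match lies at chr9:52087441-52087462 on the plus strand and that of Fndc3a at chr14:72539655-72539676 on the minus strand. The Nap1l1 match lies at chr10:111497156-111497177, that of Cdc34 at chr10:79688113-79688134 and that of Hmga1 at chr17:27563278-27563299, all on the plus strand. The Lin28b match shown, the one nearest its stop codon, lies at chr10:45381022-45381043 on the minus strand. All are in 3′ UTRs of GRCm38.
Rdx: ctgagaacaaaataCTACCTCA
Nap1l1: gactgttgattcaaCTACCTCA
Cdc34: cctcaggcgacagaCTACCTCA
Lin28b: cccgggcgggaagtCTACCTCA
Fndc3a: ctagtgctatacttCTACCTCc
Hmga1: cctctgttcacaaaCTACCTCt
In Rdx, Nap1l1, Cdc34 and Lin28b the match was followed by an A, and in Fndc3a and Hmga1 by another base.

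The depth of the libraries was 17209294 to 20545722 counts in Ash1l+/- and 17648407 to 19033437 in WT. WT replicate 2 stood apart from the other 5 libraries, with correlations of log2 CPM of 0.86 to 0.89 with them, while they correlated at 0.985 or more with each other. Each comparison is therefore given with all 6 libraries and with the 5 that remain without WT replicate 2. Ash1l itself had 66.5, 66.5 and 68.9 CPM in Ash1l+/- and 60.9, 30.9 and 54.4 CPM in WT, a log2 fold change of 0.46 with 6 libraries (adjusted p 0.396, edgeR) and 0.22 with 5 (adjusted p 0.0593). With the GC and length trends described further on removed, these values were -0.17 (adjusted p 0.578) and -0.12 (adjusted p 0.427), so the sign turned and none was called. In CPM the Ash1l+/- libraries all lay above the WT libraries, and without the structure of the allele this level does not check the genotype, which rests on the labels. All 11 sensory neuron markers were detected in every library, with summed levels of 19200 to 20800 CPM in Ash1l+/- and 19300 to 31600 CPM in WT. The highest of these sums was that of WT replicate 2, where Uchl1 alone had 14200 CPM, against 2260 to 2850 CPM in the other libraries. Only 3 of the 11 markers lay above WT replicates 1 and 3 in that library, with a median log2 difference of -0.229. Its scaled CPM over all genes tested also summed to 1320000, against 939000 to 956000 in the others. WT replicate 2 also had more erythroid marker reads (628 CPM summed, against 31.6 to 101 CPM in the other libraries) and skeletal muscle marker reads (36 CPM, against 2.17 to 4.56 CPM).

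With all 6 libraries, none of the 24 expressed members differed between genotypes by edgeR's quasi-likelihood test at a Benjamini-Hochberg adjusted p under 0.05 over all 16032 genes tested, and 0% of those genes did. Such genes are called changed below. The smallest adjusted p was 0.385. An unadjusted p under 0.05 was reached by 2 members, Ccnd2 and Hmga1, and by 1702 of all genes (10.6%). DESeq2 called 35 genes and no member. Without WT replicate 2, 7 of the 24 changed: Rdx, Fndc3a, Nap1l1, Ccnd1 and Ccnd2 were higher in Ash1l+/- ganglia, Hmga1 and Cdc34 were lower, and the other 17 were not called. Over all 16395 genes tested in that comparison 19.8% were called, 9.39% as higher and 10.4% as lower, and the members' 7 calls stand beside that share. In bulk tissue, fewer cells of a type and less RNA per cell cannot be told apart.

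The median log2 fold change of the 24 expressed members was 0.18 with 6 libraries, where 18 of them had a positive value, against 0.00 over all genes. Without WT replicate 2 it was 0.19, with 19 of 24 positive, again against 0.00 over all genes. In CPM, 9 members lay higher in every Ash1l+/- library than in any WT library, 2 lay lower and 13 overlapped. The same held for 19.3% of all genes on the higher side and 19.2% on the lower side. Without WT replicate 2 the counts were 11 higher, 3 lower and 10 overlapping, against 23.9% of all genes higher and 25.3% lower.

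Transcript GC content and gene length differed between the members that rose and the 2 that fell. The 5 that rose lay between the 6.04 and 57.3 percentiles of GC among tested genes, while Hmga1 and Cdc34, which fell, lay at the 97.7 and 99.1 percentiles. By length, the 5 that rose lay between the 56.7 and 91.1 percentiles and the 2 that fell at 19.8 and 12.2. The uncalled expressed members spanned 8.13 (Lin28b) to 77 (Mycn) by GC and 15.2 (E2f5) to 98.5 (Igf1r) by length. Outside these spans lay Hmga1 and Cdc34 at the high end of GC, Nap1l1 at its low end (6.04) and Cdc34 by length (12.2). A smooth trend of each library against GC and length was therefore also fitted and removed. In that fit, without WT replicate 2, 7.56% of all genes were called, 2.62% as higher and 4.94% as lower. Of the list, Ccnd1 and Rdx were called, both as higher in Ash1l+/-, and the median log2 fold change of the 24 expressed members was 0.04, against -0.01 over all genes. With 6 libraries and the trends removed, 0% of genes and no member were called, and the members' median was -0.03 against -0.09. Whether the trends come from the tissue or from the libraries was not tested.

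**Figure D2:**
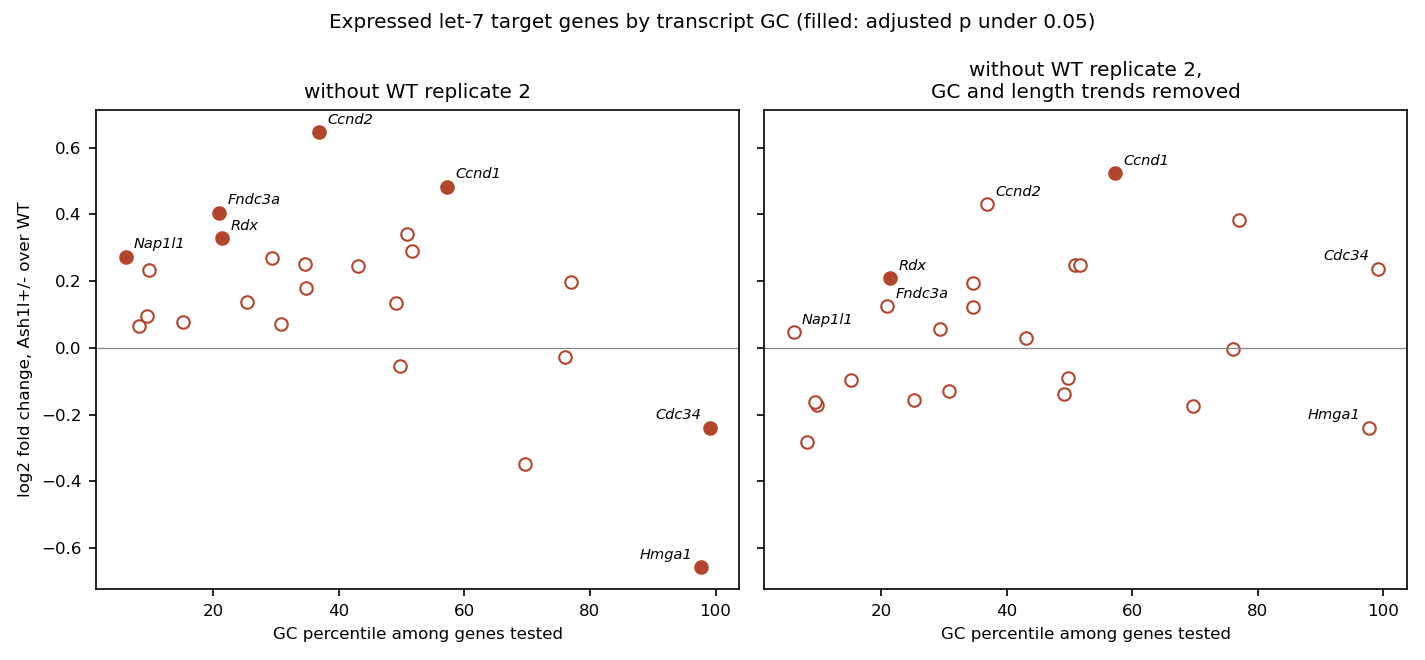
Log2 fold change, Ash1l+/- over WT (y axis), of the 24 expressed let-7 target genes by the GC percentile of their transcripts among tested genes (x axis), without WT replicate 2, before (left) and after (right) GC and length trends were removed. Filled points had an adjusted p under 0.05: 7 genes on the left, with Hmga1 and Cdc34 at the high-GC end, and Ccnd1 and Rdx on the right.

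**Figure D3:**
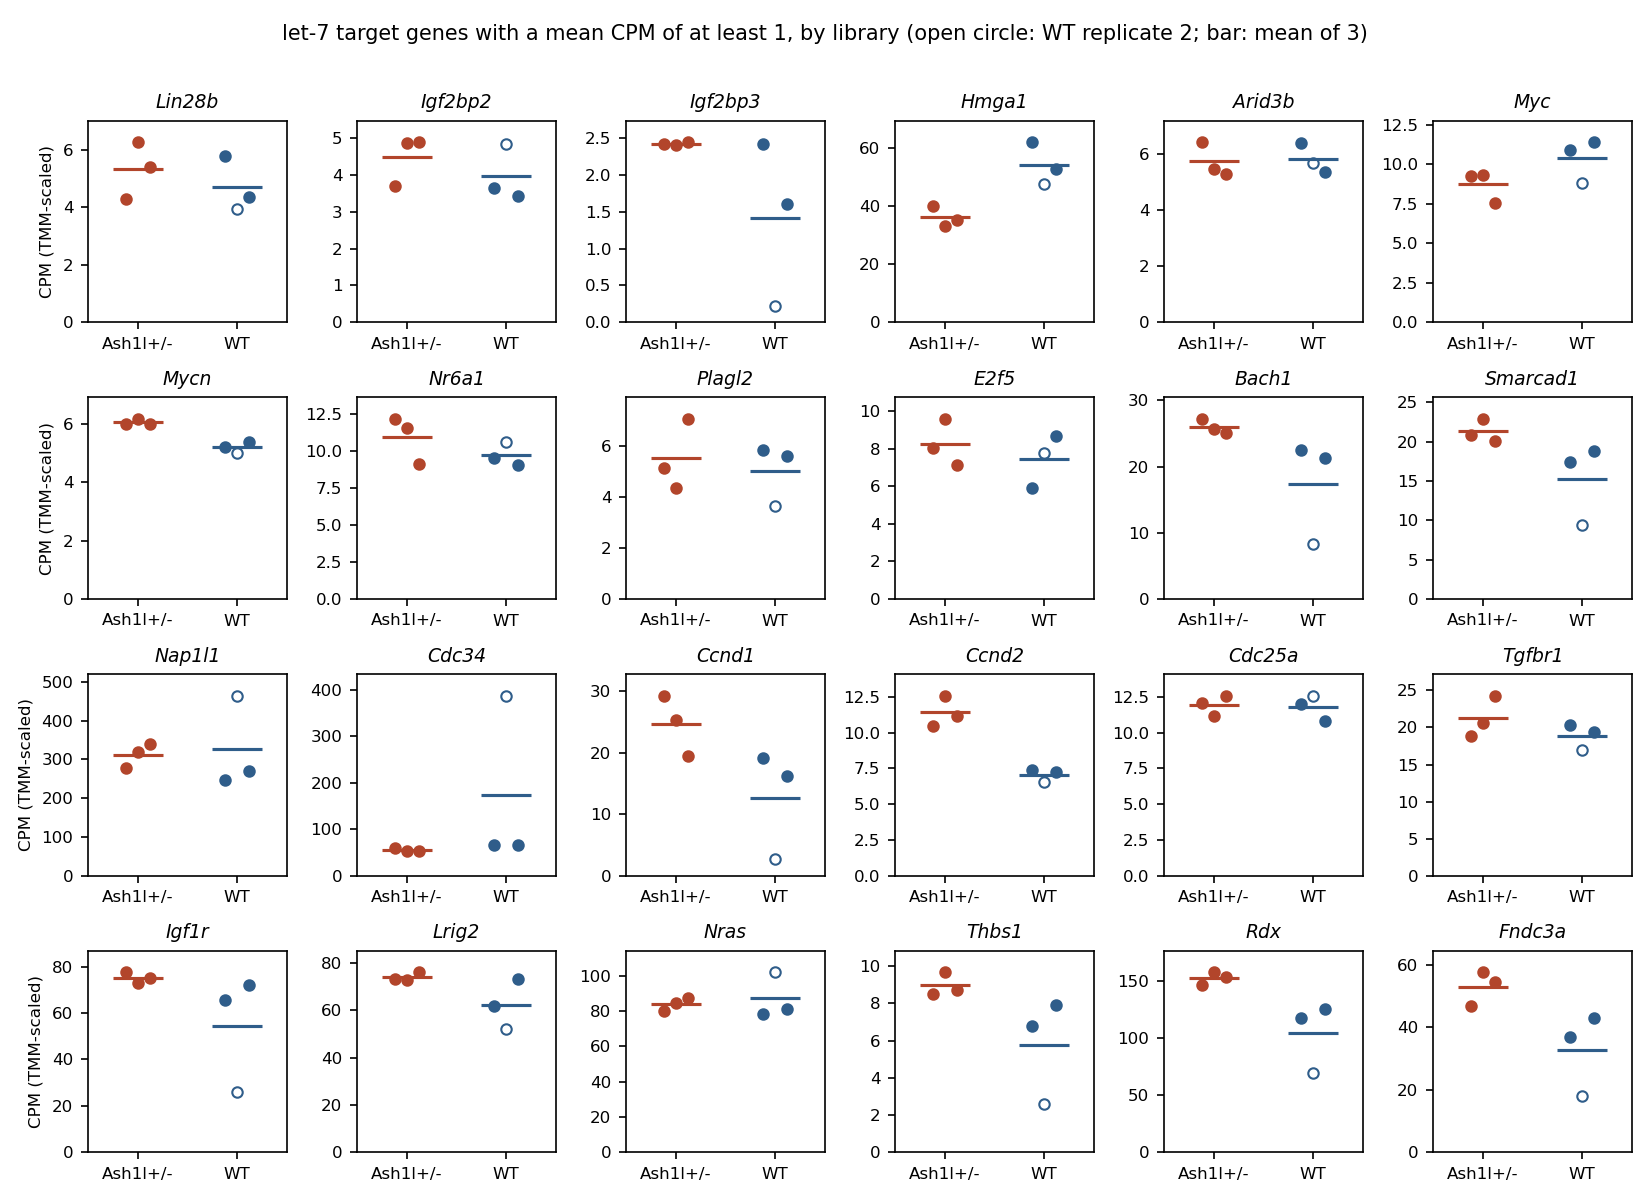
TMM-scaled CPM (y axis, from 0) of each expressed let-7 target gene in the 3 Ash1l+/- and 3 WT libraries, with a bar at the mean of 3 and WT replicate 2 as an open circle. The open circle is far above the other points for Cdc34 (388 CPM) and far below them for Ccnd1 (2.69 CPM) and Bach1 (8.37 CPM).

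Levels are CPM scaled with TMM factors, given for replicates 1, 2 and 3 of each genotype. Per length, the expressed members spanned a mean over 6 libraries of 0.236 CPM per kilobase of gene length for Igf2bp3 to 72.6 for Cdc34. Cdc34 owed its place to WT replicate 2, in which it had 247 CPM per kilobase, against a mean of 35.2 in Ash1l+/- and 41.6 in the other WT libraries. Nap1l1 followed with a mean of 64.1, Rdx with 27.8, Hmga1 with 21.2 and Nras with 16.1.

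Of the proteins that act on let-7 or bind RNA in embryonic tissue, 3 of 6 were expressed, all at low levels, and none changed in either comparison. Lin28b, which blocks let-7 maturation, had 4.30, 6.28 and 5.40 CPM in Ash1l+/- and 5.78, 3.96 and 4.36 CPM in WT. Igf2bp2, an mRNA-binding protein that stabilises its targets, had 3.71, 4.88 and 4.90 CPM in Ash1l+/- and 3.66, 4.86 and 3.42 CPM in WT. The genotypes overlapped for both genes. Igf2bp3, of the same family, had 2.43, 2.41 and 2.45 CPM in Ash1l+/- and 2.42, 0.224 and 1.61 CPM in WT, with WT replicate 2 lowest. Igf2bp3 also overlaps another gene on the opposite strand, and because the kit named in the labels keeps no strand information, reads from the shared bases cannot be told apart.

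Among the 10 expressed members that act in chromatin and transcription, none changed with 6 libraries. In the 5-library fit, Hmga1 fell and Nap1l1 rose in Ash1l+/-. Hmga1, an architectural chromatin protein that binds AT-rich DNA, had 40.1, 33.2 and 35.2 CPM in Ash1l+/-, against 61.9, 47.5 and 52.6 CPM in WT. Every Ash1l+/- library lay below every WT library. The means were 36.2 ± 3.57 CPM in Ash1l+/- and 54.0 ± 7.32 CPM in WT (SD, n = 3 each; exact permutation p 0.1, two-sided, the smallest this design allows). The edgeR log2 fold change was -0.58 (SE 0.17, adjusted p 0.385) with 6 libraries and -0.66 (SE 0.10, adjusted p 0.000289) without WT replicate 2, a fold of 0.634. With the GC and length trends removed it was -0.24 (adjusted p 0.0643) in the 5 libraries and 0.026 in the 6, so the call was lost in the first and the sign turned in the second.

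The Hmga1 gene (ENSMUSG00000046711, chr17:27556497-27563674, plus strand) shares its last 102 bases with AI413582, which lies on the opposite strand. AI413582 had 41.2, 37.7 and 35.5 CPM in Ash1l+/- and 59.6, 183 and 69.8 CPM in WT, and its log2 fold change without WT replicate 2 was -0.76 (edgeR, adjusted p 4.71e-05). Both neighbours were thus called lower, and reads from the shared bases cannot be assigned. The near copy Hmga1b was counted separately, at 6.32, 3.49 and 4.73 CPM in Ash1l+/- and 5.78, 2.32 and 6.48 CPM in WT, so the division of reads between Hmga1 and Hmga1b is uncertain.

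Nap1l1, a histone chaperone, had 279, 319 and 339 CPM in Ash1l+/-, against 247, 465 and 271 CPM in WT. WT replicate 2 was the highest library of all and WT replicates 1 and 3 the lowest. The means were 312 ± 30.5 CPM in Ash1l+/- and 328 ± 120 CPM in WT (SD, n = 3 each; exact permutation p 1, two-sided). The direction thus depended on that library: its value was -0.07 (log2, SE 0.28, adjusted p 0.883, edgeR) with it and 0.27 (SE 0.083, adjusted p 0.0264) without it, a fold of 1.21. Once the trends were removed it was 0.05 (adjusted p 0.722) in the 5 libraries. Nap1l1 lies at chr10:111473223-111498150 on the plus strand.

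Smarcad1, a chromatin remodeller, had 20.9, 22.9 and 20.1 CPM in Ash1l+/- and 17.4, 9.41 and 18.8 CPM in WT. The groups did not overlap (exact permutation p 0.1), but the edgeR log2 fold change of 0.48 (SE 0.28, adjusted p 0.400) with 6 libraries and 0.23 (SE 0.11, adjusted p 0.157) with 5 did not pass the threshold, and it was -0.17 (adjusted p 0.361) with 5 libraries and the trends removed. Bach1, a repressor of haem- and oxidative-stress genes with 2 seed matches, had 27.2, 25.7 and 25 CPM in Ash1l+/- and 22.5, 8.37 and 21.3 CPM in WT. Its groups did not overlap either, with WT replicate 2 far below the rest, and it was not called in either comparison.

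The 2 Myc genes, growth-promoting transcription factors, had values on opposite sides without being called. Myc had 9.25, 9.34 and 7.57 CPM in Ash1l+/- and 10.9, 8.82 and 11.4 CPM in WT, with overlap. Mycn had 6, 6.17 and 6.01 CPM in Ash1l+/- and 5.19, 5.01 and 5.39 CPM in WT, with no overlap. Neither holds a seed match in the UTR searched.

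The remaining 4 members of this role overlapped between genotypes and were not called. Nr6a1, an orphan nuclear receptor of embryonic cells with 8 seed matches, had 12.2, 11.6 and 9.13 CPM in Ash1l+/- and 9.53, 10.6 and 9.07 CPM in WT. E2f5, an E2F family factor of cell cycle genes, had 8.06, 9.60 and 7.12 CPM in Ash1l+/- and 5.93, 7.77 and 8.71 CPM in WT. Neither showed an order of the genotypes: in both genes the lowest Ash1l+/- library lay within the WT range. Arid3b, an AT-rich-DNA-binding factor, had 6.41, 5.47 and 5.29 CPM in Ash1l+/- and 6.37, 5.68 and 5.34 CPM in WT, nearly the same 3 values. Plagl2, a zinc-finger transcription factor, had 5.13, 4.35 and 7.07 CPM in Ash1l+/- and 5.83, 3.66 and 5.60 CPM in WT.

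Of the 4 expressed cell cycle members, Ccnd1 and Ccnd2 rose and Cdc34 fell in Ash1l+/- without WT replicate 2, and none changed with 6 libraries. Ccnd1 and Ccnd2 encode D-type cyclins, which activate the kinases that open the cell cycle. Ccnd2 had 10.5, 12.6 and 11.2 CPM in Ash1l+/-, against 7.36, 6.57 and 7.26 CPM in WT. All 3 Ash1l+/- libraries lay above all 3 WT libraries, WT replicate 2 included, with means of 11.4 ± 1.08 CPM in Ash1l+/- and 7.06 ± 0.427 CPM in WT (SD, n = 3 each; exact permutation p 0.1). It had the smallest unadjusted p of the list with 6 libraries (0.00645), where its log2 fold change was 0.69 (SE 0.17, adjusted p 0.385, edgeR). Without WT replicate 2 it was 0.65 (SE 0.15, adjusted p 0.00575), a fold of 1.57, and with the trends removed as well 0.43 (adjusted p 0.0695), no longer called. Ccnd2 lies at chr6:127125162-127152193 on the minus strand.

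Ccnd1 had 29.3, 25.3 and 19.4 CPM in Ash1l+/-, against 19.2, 2.69 and 16.2 CPM in WT. The nearest libraries of the 2 groups lay at 19.4 and 19.2 CPM, with WT replicate 2 far below, and the means were 24.6 ± 4.97 CPM in Ash1l+/- and 12.7 ± 8.79 CPM in WT (SD, n = 3 each; exact permutation p 0.1). Ccnd1 had a log2 fold change of 0.95 (SE 0.65, adjusted p 0.433, edgeR) with 6 libraries and 0.48 (SE 0.14, adjusted p 0.0239) without WT replicate 2, a fold of 1.40. Removing the trends left it at 0.52 (SE 0.135, adjusted p 0.0235). Ccnd1 (chr7:144929931-144939925, minus strand) shares 1771 bases with Oraov1 on the opposite strand, which had 50.2, 49.2 and 50.2 CPM in Ash1l+/- and 49.0, 42.7 and 53.1 CPM in WT and was not called (log2 fold change -0.03, adjusted p 0.829, edgeR, 5 libraries). Neither D-type cyclin holds a seed match in the UTR searched.

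Cdc34, a ubiquitin-conjugating enzyme that marks cell cycle inhibitors for degradation, had 59.0, 53.1 and 53.8 CPM in Ash1l+/-, against 65.5, 388 and 65.3 CPM in WT. WT replicate 2 alone set the WT mean of 173 ± 186 CPM, while Ash1l+/- averaged 55.3 ± 3.23 CPM (SD, n = 3 each; exact permutation p 0.1). Cdc34 had a log2 fold change of -1.64 (SE 0.74, adjusted p 0.385, edgeR) with that library and -0.24 (SE 0.083, adjusted p 0.0460) without it, a fold of 0.847. With the trends removed it was 0.24 (adjusted p 0.0732) in the 5 libraries, with the opposite sign. Cdc34 lies at chr10:79682195-79688398 on the plus strand, and its near copy Cdc34b had at most 0.549 CPM in any library.

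Cdc25a, a phosphatase that activates cyclin-dependent kinases, had 12.1, 11.2 and 12.6 CPM in Ash1l+/- and 12, 12.6 and 10.8 CPM in WT, with full overlap. Of 12 markers of dividing cells 11 were tested and none was called in either comparison, and their summed level was 53.8 to 60.6 CPM in Ash1l+/- and 60.2 to 80.3 CPM in WT, with no marker at 0.

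Both members that link to the cytoskeleton or membrane rose in Ash1l+/- without WT replicate 2. Rdx, which encodes radixin, a linker of actin filaments to the plasma membrane, had 147, 158 and 154 CPM in Ash1l+/-, against 118, 69.9 and 126 CPM in WT. The groups did not overlap with or without WT replicate 2, and the means were 153 ± 5.42 CPM in Ash1l+/- and 105 ± 30.4 CPM in WT (SD, n = 3 each; exact permutation p 0.1). Rdx had a log2 fold change of 0.55 (SE 0.25, adjusted p 0.385, edgeR) with 6 libraries and 0.33 (SE 0.075, adjusted p 0.00507) with 5, a fold of 1.26. With the trends removed it was 0.21 (SE 0.0605, adjusted p 0.0426), still called. Rdx lies at chr9:52047173-52088735 on the plus strand, and its single seed match, shown above, is followed by an A.

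Fndc3a, a membrane protein with fibronectin type III domains, had 46.6, 57.5 and 54.4 CPM in Ash1l+/-, against 36.8, 18.1 and 43.0 CPM in WT. The groups did not overlap, with means of 52.8 ± 5.64 CPM in Ash1l+/- and 32.6 ± 13.0 CPM in WT (SD, n = 3 each; exact permutation p 0.1). Fndc3a had a log2 fold change of 0.69 (SE 0.33, adjusted p 0.385, edgeR) with 6 libraries and 0.40 (SE 0.10, adjusted p 0.00861) with 5, a fold of 1.32. After removal of the trends it was 0.12 (adjusted p 0.407) and not called. Fndc3a lies at chr14:72537946-72710003 on the minus strand.

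None of the 5 expressed ligands, receptors and signalling proteins changed in either comparison. Igf1r, the receptor for insulin-like growth factor 1, had 77.5, 72.9 and 75 CPM in Ash1l+/- and 65.4, 26.0 and 71.9 CPM in WT, with no overlap and WT replicate 2 far below the rest. Lrig2, a transmembrane regulator of growth factor receptors, had 73.2, 72.7 and 75.9 CPM in Ash1l+/- and 61.6, 52.0 and 73.1 CPM in WT, where WT replicate 3 lay within the Ash1l+/- range. Thbs1, a secreted matrix protein with no seed match, had 8.52, 9.66 and 8.74 CPM in Ash1l+/- and 6.77, 2.61 and 7.93 CPM in WT, without overlap. Thbs1 had a log2 fold change of 0.63 (SE 0.40, adjusted p 0.416, edgeR) with 6 libraries and 0.29 (SE 0.16, adjusted p 0.213) with 5. Tgfbr1, the type I TGF-β receptor, had 18.9, 20.6 and 24.3 CPM in Ash1l+/- and 20.3, 17.0 and 19.4 CPM in WT. Nras, a small GTPase of growth signalling, had 80.1, 84.9 and 87.7 CPM in Ash1l+/- and 78.5, 102 and 81.4 CPM in WT. The genotypes overlapped in both genes.

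Leaving out 1 further library beside WT replicate 2 changed which of the 7 calls held. Hmga1 was called whichever of the other 5 libraries was left out, with log2 fold changes of -0.54 to -0.78. Without WT replicate 1 as well, it was the only member called: Ccnd2 then had 0.65 (adjusted p 0.0585, edgeR), Ccnd1 0.60 (0.0549), Rdx 0.28 (0.102), Fndc3a 0.29 (0.187), Nap1l1 0.20 (0.283) and Cdc34 -0.24 (0.218). Without WT replicate 3, Ccnd1 had 0.36 (adjusted p 0.176) and Cdc34 -0.25 (0.125). Without Ash1l+/- replicate 1, Ccnd1 had 0.33 (adjusted p 0.0680). Without Ash1l+/- replicate 2, Fndc3a had 0.34 (adjusted p 0.0514), Ccnd1 0.47 (0.0575), Nap1l1 0.26 (0.0929) and Cdc34 -0.21 (0.172), and without Ash1l+/- replicate 3 Nap1l1 had 0.21 (0.128) and Cdc34 -0.22 (0.132). The other calls held in these fits, and no sign of the 7 turned in them.

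**Figure D4:**
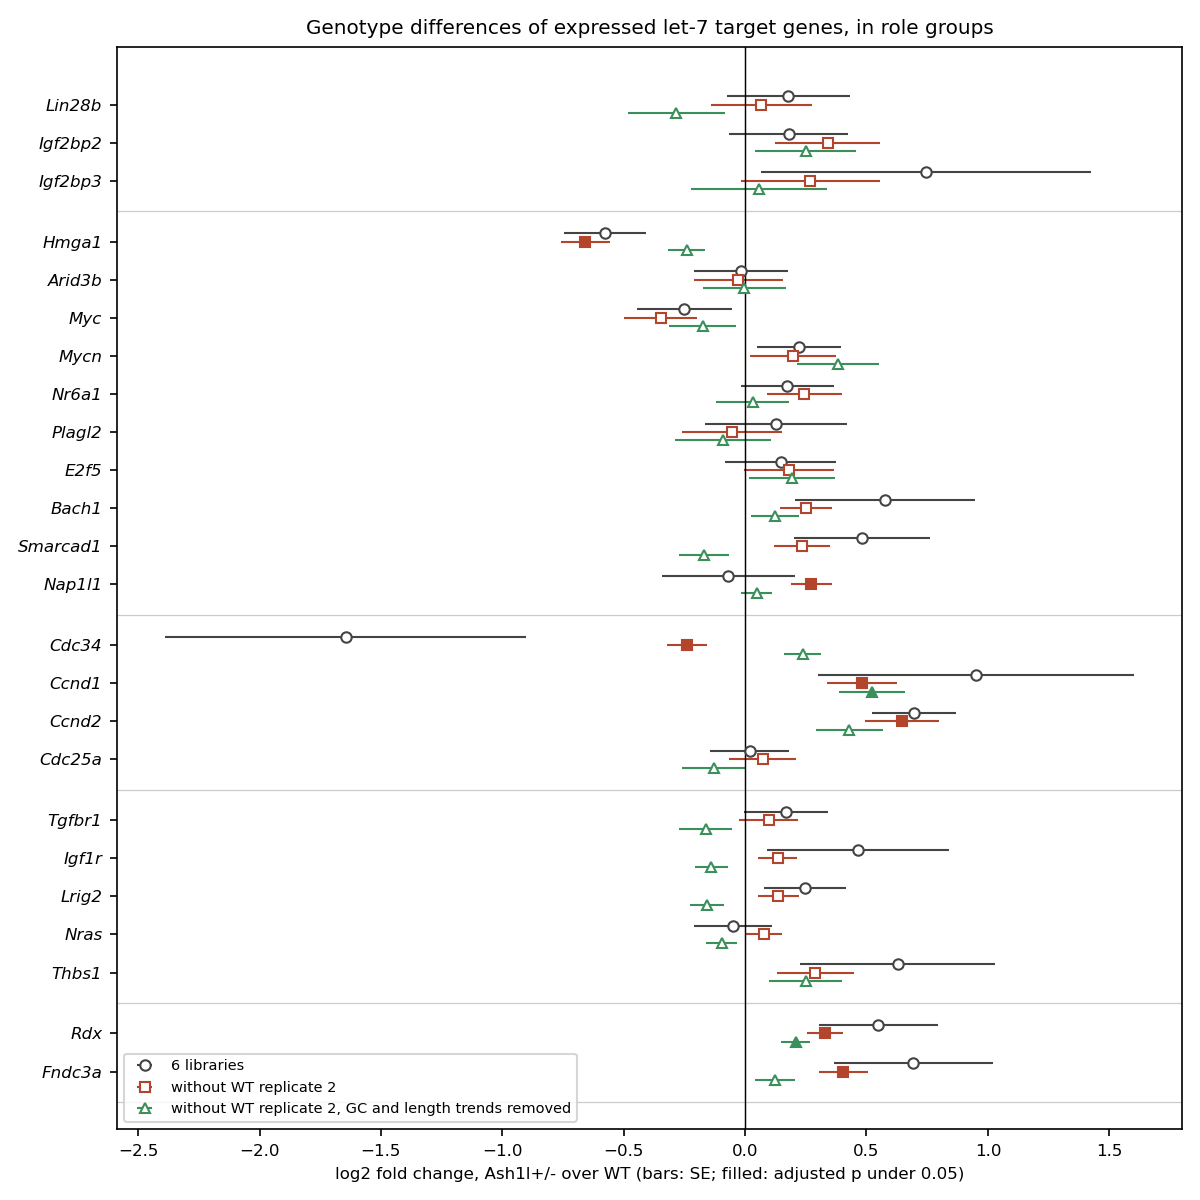
Log2 fold change, Ash1l+/- over WT (x axis, bars are SE), of the 24 expressed let-7 target genes in role groups (y axis) with 6 libraries, without WT replicate 2, and without it after GC and length trends were removed. Filled symbols had an adjusted p under 0.05: none with 6 libraries, 7 genes without WT replicate 2, and Ccnd1 and Rdx after the trends were removed.

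The 15 expressed members without full statistics above ranged in log2 fold change from -0.25 to 0.75 with 6 libraries and from -0.35 to 0.34 with 5, with adjusted p of 0.42 to 0.96 and 0.10 to 0.93 (edgeR). WT replicate 2 lay outside the range of the other 5 libraries in 18 of the 24 expressed members, below it in 14 and above it in 4. Set against the mean of WT replicates 1 and 3, the median log2 difference of the 24 members was 0.14, 0.23 and 0.16 in the Ash1l+/- libraries and -0.29 in WT replicate 2. Over all genes tested these medians were within 0.01 of 0 for the Ash1l+/- libraries and -0.06 for WT replicate 2.

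The 7 members under 1 CPM were close to or at the limit of detection, and their read counts are given as they stand. Lin28a, the embryonic blocker of let-7 maturation, had 0, 1 and 0 reads in Ash1l+/- and 2, 0 and 3 in WT. Hmga2, the embryonic relative of Hmga1, had 2, 0 and 0 reads in Ash1l+/- and 1, 0 and 3 in WT. Igf2bp1 had 0, 0 and 1 reads in Ash1l+/- and 0, 4 and 0 in WT. These 3 genes and Gdf6, a bone morphogenetic protein ligand with 0, 5 and 1 reads in Ash1l+/- and 2, 0 and 1 in WT, had too few reads for a test. Trim71, an RNA-binding ubiquitin ligase of embryonic stem cells, had 21, 3 and 5 reads in Ash1l+/- and 14, 5 and 9 in WT and was tested only with 5 libraries, without a call.

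Dna2, a nuclease-helicase of DNA replication, had 22, 23 and 19 reads in Ash1l+/- and 13, 1 and 29 in WT, with no call. Acvr1c, a type I receptor of the activin and nodal pathway with 2 seed matches, had 16, 13 and 11 reads in Ash1l+/- and 6, 9 and 4 in WT. Each Ash1l+/- count was above each WT count, but in CPM WT replicate 2 reached into the Ash1l+/- range. Acvr1c had a log2 fold change of 0.84 (SE 0.51, adjusted p 0.406, edgeR) with 6 libraries and 1.41 (SE 0.58, adjusted p 0.0932) with 5.

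The 24 expressed members were also split by the seed match. Of the 19 with a match, 3 rose and 2 fell in Ash1l+/- without WT replicate 2, with a median log2 fold change of 0.14. Of the 5 without one, 2 rose, with a median of 0.29. Over all genes tested in that fit, 9.39% were called higher and 10.4% lower. With the trends removed as well, 1 of the 19 and 1 of the 5 were called higher and none lower, and the medians were -0.003 and 0.38. In that fit 2.62% of all genes were called higher and 4.94% lower. The difference between the 2 groups of members was not tested.

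Genes outside the list were grouped by the same letters. In the 5-library fit, the 1448 tested genes with at least 1 match had a median log2 fold change of 0.05, with 194 called higher and 118 lower in Ash1l+/-. The 175 of them with 2 or more matches had a median of 0.10, with 26 higher and 8 lower. The 12739 genes with a 3′ UTR and no match had a median of -0.01, with 1218 higher and 1499 lower. With 6 libraries the medians were 0.10, 0.20 and -0.02. The matched genes also had greater gene lengths, as given with the counts. Among genes tested with 6 libraries, the median was 5754.5 bases with a match (1436 genes) and 7083 with 2 or more (174). It was 4335 for those with none (12585). With GC and length trends removed, the 5-library medians were -0.02, -0.03 and -0.01. In that fit 21 were called higher and 79 lower with at least 1 match, and 3 and 13 with 2 or more. Of those with none, 333 were higher and 682 lower.

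**Figure D5:**
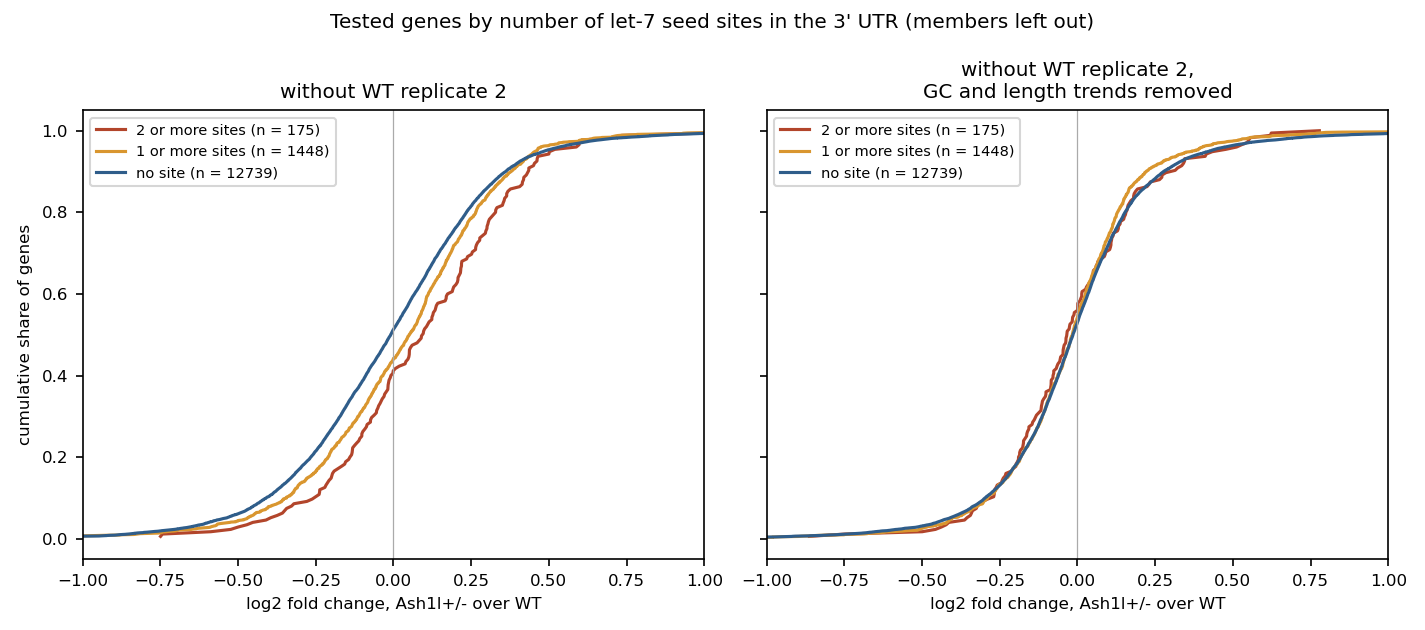
Cumulative share of tested genes outside the list (y axis) by log2 fold change, Ash1l+/- over WT (x axis), without WT replicate 2, before (left) and after (right) GC and length trends were removed, for genes with 2 or more, 1 or more and no let-7 seed match. On the left the curve for 2 or more matches lies to the right of the others, with medians of 0.10, 0.05 and -0.01, and on the right the curves lie together, with medians of -0.03, -0.02 and -0.01.

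The genes that make let-7 and carry out its action were read beside the targets. In the fit without WT replicate 2, 9.39% of all genes were called higher and 10.4% lower. Of 13 genes of miRNA processing and silencing, none changed with 6 libraries and 4 rose in Ash1l+/- without WT replicate 2, with none falling. These were the Argonautes Ago2 (log2 fold change 0.25, adjusted p 0.0334, edgeR) and Ago3 (0.47, adjusted p 0.00221) and their silencing partners Tnrc6a (0.29, adjusted p 0.0126) and Tnrc6b (0.35, adjusted p 0.00681). Ago3 had 63.5, 65.4 and 64.8 CPM in Ash1l+/-, against 41.4, 24.4 and 52.2 CPM in WT. With the trends removed, their log2 fold changes were -0.01 to 0.04 and none of the 13 was called.

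Of 11 tested genes that control let-7 precursors, Msi2, Syncrip and Tut7 rose without WT replicate 2 and none fell. The share over all genes in that fit was again 9.39% higher and 10.4% lower. Msi2, an RNA-binding protein, had a log2 fold change of 0.44 (adjusted p 0.00177, edgeR), Syncrip, another RNA-binding protein, 0.33 (0.00782) and Tut7, which adds uridines to let-7 precursors, 0.42 (0.00326). With the trends removed none of these was called. Dis3l2, the nuclease that degrades uridylated let-7 precursors, was then called lower at -0.42 (adjusted p 0.0109, edgeR, 5 libraries). In that fit 2.62% of all genes were called higher and 4.94% lower. Dis3l2 had 20.5, 22.2 and 22.2 CPM in Ash1l+/- and 22.5, 18.9 and 23.1 CPM in WT. In CPM the Ash1l+/- libraries lay below WT replicates 1 and 3, while WT replicate 2, left out of that fit, lay below them all. Before the trends were removed its log2 fold change was -0.07 (adjusted p 0.678, edgeR, 5 libraries).

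Of the let-7 genes themselves, 9 were listed and found in the table, and they held 0 reads in all libraries except for 1 read of Mirlet7a-1 in Ash1l+/- replicate 1. Of the host genes from whose transcripts let-7 members are cut, Huwe1, a ubiquitin ligase, had 361, 390 and 387 CPM in Ash1l+/- and 285, 144 and 294 CPM in WT, a log2 fold change of 0.39 (adjusted p 0.00122, edgeR, 5 libraries) that was 0.06 (adjusted p 0.615) with the trends removed. Wdr82 had 67.3, 61.6 and 59.9 CPM in Ash1l+/- and 62.8, 57.8 and 65.6 CPM in WT. Mir99ahg, a long non-coding host RNA, had 1.24, 2.25 and 3.56 CPM in Ash1l+/- and 1.93, 32.7 and 0.933 CPM in WT, and it was not called in either comparison. WT replicate 2 thus lay far above every other library for Mir99ahg.

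Markers of several cell types were called in the comparison without WT replicate 2, where 9.39% of all genes were called higher and 10.4% lower. Among them were those of satellite glia, the cells that wrap sensory neuron bodies. Of 6 markers, Fabp7, Kcnj10, Cdh19 and Slc1a3 were called higher in Ash1l+/- without WT replicate 2, and none with 6 libraries. With the trends removed, where 2.62% of all genes were called higher and 4.94% lower, 2 of the 6 were still called higher. Their summed level was 908 to 975 CPM in Ash1l+/- and 831 to 937 CPM in WT, with no marker at 0 in any library. Of 7 Schwann cell markers 1 was called higher and 3 lower, with sums of 4330 to 5050 CPM in Ash1l+/- and 5060 to 7180 CPM in WT. Of 7 fibroblast markers 3 were called lower, with sums of 668 to 751 CPM in Ash1l+/- and 583 to 849 CPM in WT. In the same 5-library fit, 2 of 11 sensory neuron markers were called higher and 2 lower, 1 of 7 vascular markers higher, and 1 of 6 tested neutrophil and mast cell markers lower. Of 5 tested erythroid markers, 2 globin genes were called lower, and of 4 tested spinal cord markers 1 was higher (Aqp4, 0.72) and 2 lower, Mobp at -1.28 (adjusted p 0.000129, edgeR) and Cnp at -0.23. Their summed levels were 31.6 to 94 CPM in Ash1l+/- and 78.9 to 628 CPM in WT for the erythroid list, and 196 to 215 CPM in Ash1l+/- and 232 to 491 CPM in WT for the spinal cord list. Most of the spinal cord sum was Cnp, with 172 to 199 CPM in Ash1l+/- and 212 to 481 CPM in WT. Mog, Olig1 and Olig2 of that list had at most 0.366 CPM in any library, so the sum is no measure of spinal cord tissue. None of 7 macrophage markers and none of 3 tested skeletal muscle markers was called. With the trends also removed, 4 of the 11 sensory neuron markers were called higher and 1 lower. Lower calls there were 2 Schwann cell, 3 fibroblast, 1 neutrophil and mast cell and 1 erythroid marker, with none higher in these lists. Of the spinal cord list 1 was called higher and 1 lower, and no vascular, macrophage or skeletal muscle marker was called. The part of these cells in the members' changes was not tested.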

How the data were processed

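The authors deposited raw read counts per gene, whole numbers, and FPKM values made from them, for 6 libraries. Per the labels' protocols, frozen ganglia were extracted with Trizol and libraries made with a NEBNext Ultra kit. HISAT2 2.0.5, featureCounts 1.5.0-p3 and GRCm38 (mm10) are named per the submitters' processing notes; the settings used are not stated there. From the deposited counts, genes kept by filterByExpr were tested with edgeR 4.0.16 in R 4.3.3 (quasi-likelihood F test, TMM factors, genotype as the only term, Benjamini-Hochberg adjustment over all genes tested, threshold 0.05). SEs are the log2 fold change over the square root of F. Total counts were 20545722, 17647095 and 17209294 in Ash1l+/- and 19033437, 17648407 and 18389787 in WT replicates 1 to 3. Every pair of libraries differed by more than sampling noise (lowest chi-square per degree of freedom 3.91).

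GC and length trends were loess fits (span 0.3) per library, removed as offsets. Gene sequences and 3′ UTRs came from GENCODE M21. Alternatives were RLE, upper-quartile and total-count scaling, 2 other filters, DESeq2 1.42.0, limma 3.58.1 voom with and without quality weights, a replicate block, log2(FPKM + 1) and log2(FPKM + 0.1), and leaving libraries out. The test was also run on simulated counts in which no library stood apart and the changes were larger than those of most members. That run therefore does not show what the test can detect with a library like WT replicate 2. The table held 151 of 156 listed symbols.

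The members and all lists were chosen with earlier results of these data known. Every expressed member is given in each library. Full statistics went to members under the threshold with 6 libraries or without WT replicate 2 and to the 8 with the smallest unadjusted p with 6 libraries. Pathway genes are named where they were called, and let-7 host genes always. Neighbouring genes and near copies were chosen after values were seen.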

Additional observations from a re-analysis of the deposited data

How the results depend on the processing

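With 6 libraries, no list member was called under any other scaling, filter or FPKM scale, DESeq2, voom, or the replicate block (0 calls, median log2 fold change 0.18). Same-numbered libraries did not deviate together (correlations -0.009, -0.036 and 0.053). DESeq2 called 35 genes. Quality weights called 4179 genes and 6 members, among them Acvr1c. Leaving out 1 library gave 0 to 3252 genes and 0 to 7 members, with calls only without WT replicate 2. With GC and length trends also removed, 1239 genes and 2 members were called. Without WT replicate 2 and 1 more library, fits chosen after seeing the data, 796 (WT replicate 1), 2584 (WT replicate 3), 4198, 1855 and 2120 (Ash1l+/- replicates 1, 2 and 3) genes and 1, 5, 6, 3 and 5 members were called; where 1 WT library remained, it was assumed to vary like the others.

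The members' median was 0.13 to 0.34, except -0.03 with 6 libraries and trends removed (also -0.03 with the replicate block) and 0.04 with 5. Library totals moved the median of all genes to 0.13.

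Of 257 alternative values of the 10 members with full statistics, 17 turned sign. Nap1l1 (-0.07) became 0.00 with upper-quartile factors (0.0049), 0.14 with totals, 0.31 with quality weights, 0.047 with 5 libraries and trends removed, -0.229 to 0.27 with 1 library left out (0.27 without WT replicate 2) and 0.20 to 0.34 without it and 1 more (0.26 and 0.21 without Ash1l+/- replicates 2 and 3). With trends removed, Hmga1 was 0.026 (0.092 with the block), Smarcad1 -0.22 (-0.22 with the block, -0.17 with 5 libraries) and Cdc34 0.24 with 5. The cause was not tested. Members with a seed match numbered 26, 26 in the longest UTR and 18 with the A, and 7 members stayed under 1 CPM after TMM scaling. The 7 lowest members had at most 29 reads in any library, which limits them.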
